A study of Mus musculus with 12 samples.

Results

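Ribosome biogenesis factors are the proteins that build ribosomes without staying in them, and 38 of them, chosen by gene symbol, were followed through RNA-seq of mouse bone marrow cells. All 38 were among the 24107 genes of the deposited table. The 12 libraries fell into 4 groups of 3, all of strain C57BL/6. Control MEP were megakaryocyte-erythroid progenitors, the marrow cells that give rise to platelets and red cells, of wild-type mice, and control marrow was unselected bone marrow of wild-type mice. Leukemic MEP, of genotype Prdm16s, and Prdm16s GFP+ marrow cells were both taken from recipient mice with leukemia. Prdm16s is the short form of the transcription regulator PRDM16. The wild-type mice are not described as recipients, so the transplant, the leukemia and Prdm16s cannot be told apart here, and the GFP+ cells were selected while the control marrow was not. Values are FPKM, which are reads per gene scaled to gene length and library, and changes are on the log2(FPKM + 1) scale with their SE.

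A ribosome starts in the nucleolus, where RNA polymerase I copies the ribosomal DNA into one long precursor RNA. Small nucleolar ribonucleoproteins (snoRNPs) modify that RNA, box C/D particles by methylation and box H/ACA particles by pseudouridylation. The small subunit processome and a series of large subunit assembly factors then fold and cut it while ribosomal proteins join, and export factors carry both subunits to the cytoplasm. The transcription factor MYC is known to drive many of these genes, and blood progenitors that grow fast are known to need a large supply of ribosomes.

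The starts of 33 members were matched in the RefSeq promoter table (GRCm38.p6), which holds the 250 bases before and the 50 after each gene's start. The letters CACGTG, the E-box that MYC family proteins are known to bind and which reads the same on both strands, were present in 5 of these 33 windows of 300 bases (15.2%), against 8.09% of the windows of 27025 genes. Imp4 and Nop2 held the E-box upstream of the start, at -121 and -60, while Ltv1, Pes1 and Wdr43 held it in the bases after the start. The upstream 250 bases of 4 members whose levels are described further on are shown 5′ to 3′ on the gene's strand, with an E-box in capitals: a pair with the E-box (Nop2 at chr6:125131633-125131882, plus strand, and Imp4 at chr1:34439579-34439828, plus strand) and a pair without it (Ncl at chr1:86359456-86359705, minus strand, and Nop56 at chr2:130274162-130274411, plus strand).
Nop2: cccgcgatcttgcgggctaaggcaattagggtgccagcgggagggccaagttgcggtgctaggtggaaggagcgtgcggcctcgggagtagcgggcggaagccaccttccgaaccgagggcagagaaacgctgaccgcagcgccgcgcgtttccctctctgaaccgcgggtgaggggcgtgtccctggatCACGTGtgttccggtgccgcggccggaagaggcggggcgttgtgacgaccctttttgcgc
Imp4: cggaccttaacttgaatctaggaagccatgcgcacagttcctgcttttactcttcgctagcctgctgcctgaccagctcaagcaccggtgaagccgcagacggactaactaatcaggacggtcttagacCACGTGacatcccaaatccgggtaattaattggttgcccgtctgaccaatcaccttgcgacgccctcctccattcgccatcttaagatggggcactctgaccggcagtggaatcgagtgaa
Ncl: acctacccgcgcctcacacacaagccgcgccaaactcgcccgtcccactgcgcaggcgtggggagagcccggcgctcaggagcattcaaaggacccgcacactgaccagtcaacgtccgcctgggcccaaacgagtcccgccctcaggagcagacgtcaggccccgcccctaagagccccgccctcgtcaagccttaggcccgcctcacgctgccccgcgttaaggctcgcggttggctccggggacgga
Nop56: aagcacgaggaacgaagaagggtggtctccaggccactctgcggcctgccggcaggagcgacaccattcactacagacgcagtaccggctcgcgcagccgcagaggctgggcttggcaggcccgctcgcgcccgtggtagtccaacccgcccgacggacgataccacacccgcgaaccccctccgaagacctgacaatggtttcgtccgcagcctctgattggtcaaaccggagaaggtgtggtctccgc
Small RNA genes lie inside 7 of the 38 members in GENCODE vM21: Ncl, Nop56, Nop58, Dkc1, Wdr43, Gnl3 and Rcl1, of which several are known hosts of snoRNAs. A match to the E-box describes the letters of the window and is not evidence of binding. GC content over the 300 bases had a median of 57.7% in the members (range 45.3% to 80.3%) and of 52.7% in all genes of the promoter table.

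Whole reads recovered from the deposited values came to 6.72 to 9.71 M per library, except for leukemic MEP 3 with 0.572 M and GFP+ marrow 2 with 1.15 M. Leukemic MEP 3 stood apart from its group, with a Pearson r of 0.806 and 0.794 across genes with leukemic MEP 1 and 2, which had 0.966 between them. Its 10 granulocyte markers summed to 99836 FPKM, against 906 and 2271 in leukemic MEP 1 and 2, 27.4 to 399 in control MEP, 76768 to 93747 in control marrow and 91140 to 130778 in GFP+ marrow, and none of the 10 was at 0 in any library. The 8 erythroid markers summed to 1612 to 2113 FPKM in control MEP. They summed to 612, 513 and 129.7 in the leukemic MEP libraries 1, 2 and 3, 682 to 972 in control marrow and 52.1 to 158 in GFP+ marrow. Of these, Slc4a1 was at 0 in control MEP 1, leukemic MEP 2 and 3 and GFP+ marrow 2, Rhd in GFP+ marrow 2 and Epor in GFP+ marrow 3. In the MEP comparison 5 of the 8 erythroid markers fell, 7 of 10 granulocyte markers rose and 6 of 6 megakaryocyte markers rose (limma, adjusted p under 0.05). Of all genes 12.3% fell and 13.7% rose in that comparison. The megakaryocyte markers summed to 5673, 4651 and 294 FPKM in leukemic MEP 1, 2 and 3. Control MEP 2, the highest of the control MEP libraries, had 123. Control marrow had 140 to 209 and GFP+ marrow 194 to 513, so leukemic MEP 3 lay within the GFP+ marrow range. In the marrow comparison, where 6.03% of all genes fell and 3.02% rose, all 8 erythroid markers fell and no granulocyte marker passed the test. Markers of other cells fell there too: 3 of 6 monocyte and macrophage markers, 4 of 5 tested B cell markers and 2 of 3 tested T and NK cell markers. Of the 6 megakaryocyte markers 1 fell and none rose, while 4 of the 6 estimates were above 0 (median 0.52). The monocyte and macrophage markers summed to 865 to 986 FPKM in control marrow, against 51.9 to 89.7 in the GFP+ libraries. B cell markers summed to 129.9 to 155 FPKM and 80.7 to 115, with Ebf1 and Pax5 at 0 in all 3 GFP+ libraries, and T and NK cell markers to 7.43 to 10.9 and 0 to 3.55. The part of these markers in the results on ribosome biogenesis was not tested beyond the fits without leukemic MEP 3. Whether each library of a group had its own donor mouse is not in the labels, so the p-values cover the spread among these libraries, which may be technical.

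Ribosome biogenesis factors were highest in control MEP. Summed over the 38 members, control MEP libraries stood at 4916, 5796 and 5245 FPKM, and leukemic MEP libraries at 2741, 2876 and 1914. Control marrow had 2677, 3300 and 3031 FPKM, and GFP+ marrow 2056, 2117 and 2224. Every control MEP library thus lay above all 9 others, and every GFP+ marrow library lay below every control marrow library. Leukemic MEP 1 and 2 lay within the control marrow range, and leukemic MEP 3 lay below the GFP+ marrow range. As a share of all FPKM the members took 1.183% ± 0.057 (SD, n = 3) in control MEP, 0.575% ± 0.157 in leukemic MEP, 0.590% ± 0.030 in control marrow and 0.356% ± 0.015 in GFP+ marrow. In bulk libraries of this kind, fewer cells of a type and less RNA per cell cannot be told apart.

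**Figure D1:**
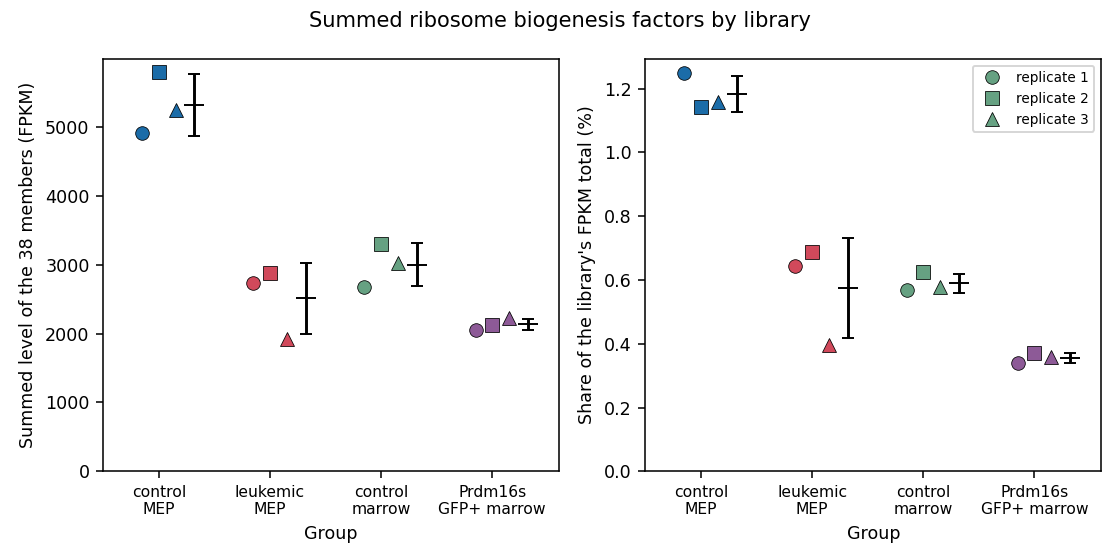
Left, the summed FPKM of the 38 ribosome biogenesis factors in each library; right, the same sum as a percent of the library's total FPKM. Markers give the replicate number, and the horizontal and vertical bars give the group mean and SD. The 3 control MEP libraries (4916 to 5796 FPKM) lie above the other 9 (1914 to 3300 FPKM).

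The group mean of control MEP was the highest of the 4 for 38 of 38 members, against 37% of the 11462 genes tested. For 33 members each control MEP library exceeded all 9 other libraries, which held for 12.2% of genes. The lowest mean was in GFP+ marrow for 29 members (30.7% of genes), in leukemic MEP for 7 (18.1%) and in control marrow for 2 (13.8%). Member means in control MEP ran from 8.68 FPKM for Noc3l to 580 for Nop10, with a median of 99.4, and the median member mean was 43.4 FPKM in leukemic MEP, 50.6 in control marrow, with 30.3 in GFP+ marrow. The heatmap of the members by library shows the red block of control MEP and, within the other columns, the lower values of leukemic MEP 3 and of GFP+ marrow.

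**Figure D2:**
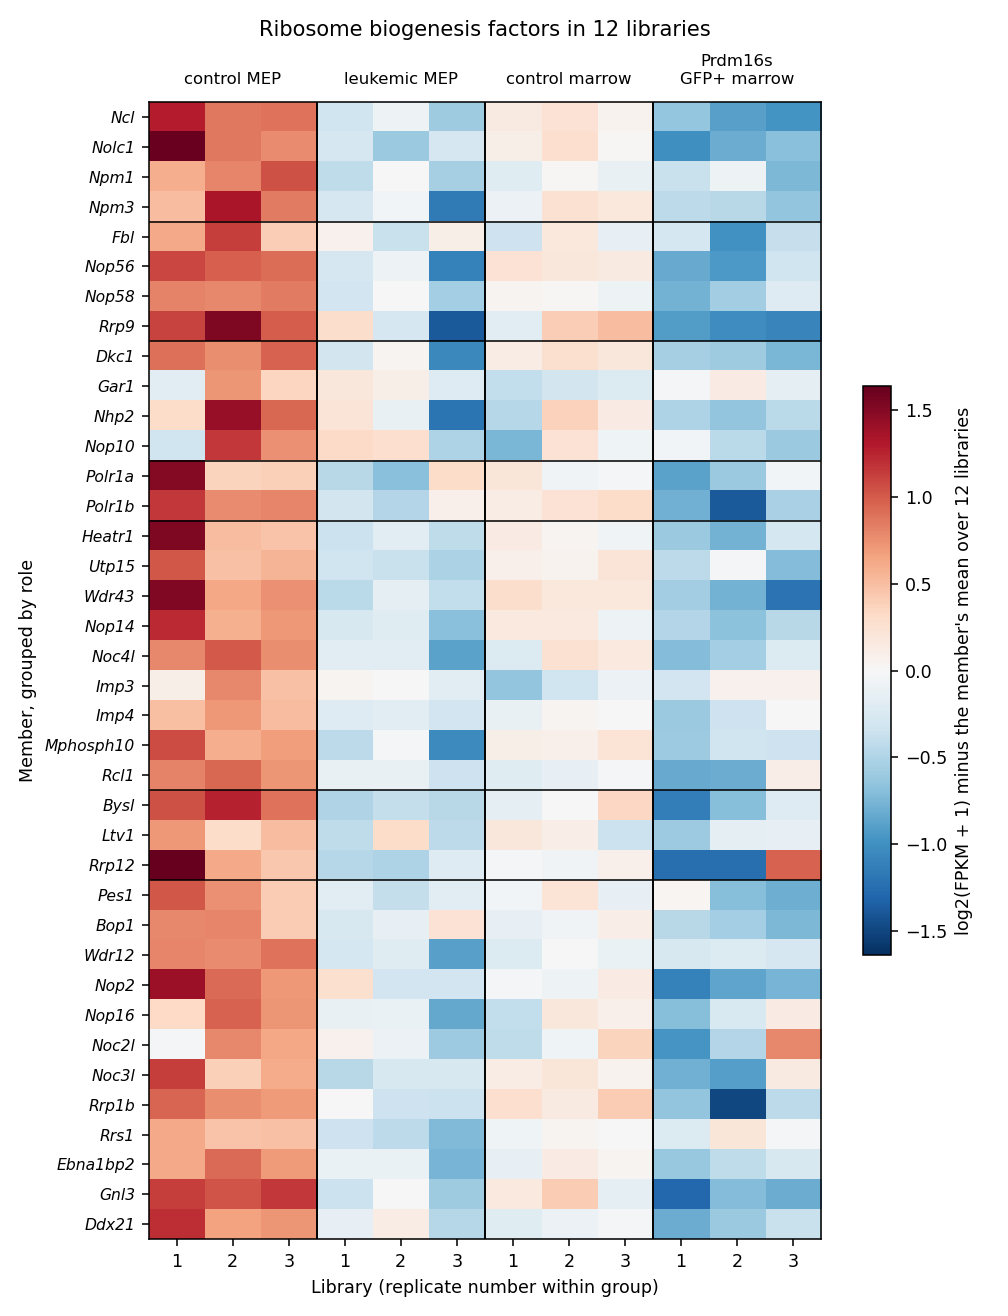
Each row is 1 of the 38 members, ordered by role with black lines between the 7 role groups, and each column is 1 of 12 libraries; colour gives log2(FPKM + 1) minus the member's mean over the 12 libraries. Control MEP holds the highest group mean of every member, and GFP+ marrow the lowest mean of 29.

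Leukemic MEP were set against control MEP to ask how the leukemic progenitors differ from their normal counterparts. Of the 38 members, 30 fell and none rose (limma-trend, Benjamini-Hochberg adjusted p under 0.05), while 12.3% of all genes tested fell and 13.7% rose. All 38 estimates were below 0, compared with 49% of all genes, and this held under each of the 24 alternative analyses. The members' median change was -1.12, that of all genes 0.02, and the members ranged from -1.66 for Rrp9 to -0.27 for Gar1. A change of -1 or lower was found for 29 members (10.6% of genes), and 27 of these passed the test (8.55%). In 35 members every leukemic MEP library was below every control MEP library, against 19.7% of genes, and the 3 that overlapped were Gar1, Nop10 and Noc2l. Without leukemic MEP 3 the count was again 30, of which 29 were shared, with Nhp2 lost and Polr1a gained. Leukemic MEP 3 was the lowest of its group for 27 members and the highest for 7, and these ranks were not counted over all genes. Without control MEP 1 the count was 26.

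GFP+ marrow cells were set against unselected control marrow to ask the same of the GFP+ cells of leukemic marrow. Here 8 members fell and none rose, against 6.03% and 3.02% of all genes (9.05% in either direction): Ncl, Nolc1, Rrp9, Polr1b, Wdr43, Nop2, Rrp1b and Gnl3. Each of the 8 also fell in leukemic MEP, as did 347 of the 691 genes that fell in marrow. Those 347 are 3.03% of all genes tested. Estimates were below 0 for 36 members (53.4% of genes), and the 2 above 0 were Gar1 and Imp3. The members' median was -0.54, beside -0.05 for all genes. In 21 members all GFP+ marrow libraries were below all control marrow libraries (19.6% of genes), and in Gar1 all were above (17.6%). The count of 8 rested on single libraries. It was 0 without control marrow 2, 2 without control marrow 3 or GFP+ marrow 2, and 3 without control marrow 1. It was 5 without GFP+ marrow 1, 10 without GFP+ marrow 3 and 12 without leukemic MEP 3, which enters only the shared spread estimate. Over all genes the calls moved too, from 388 to 2126 in fits without 1 library, against 1037 in the full fit.

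**Figure D3:**
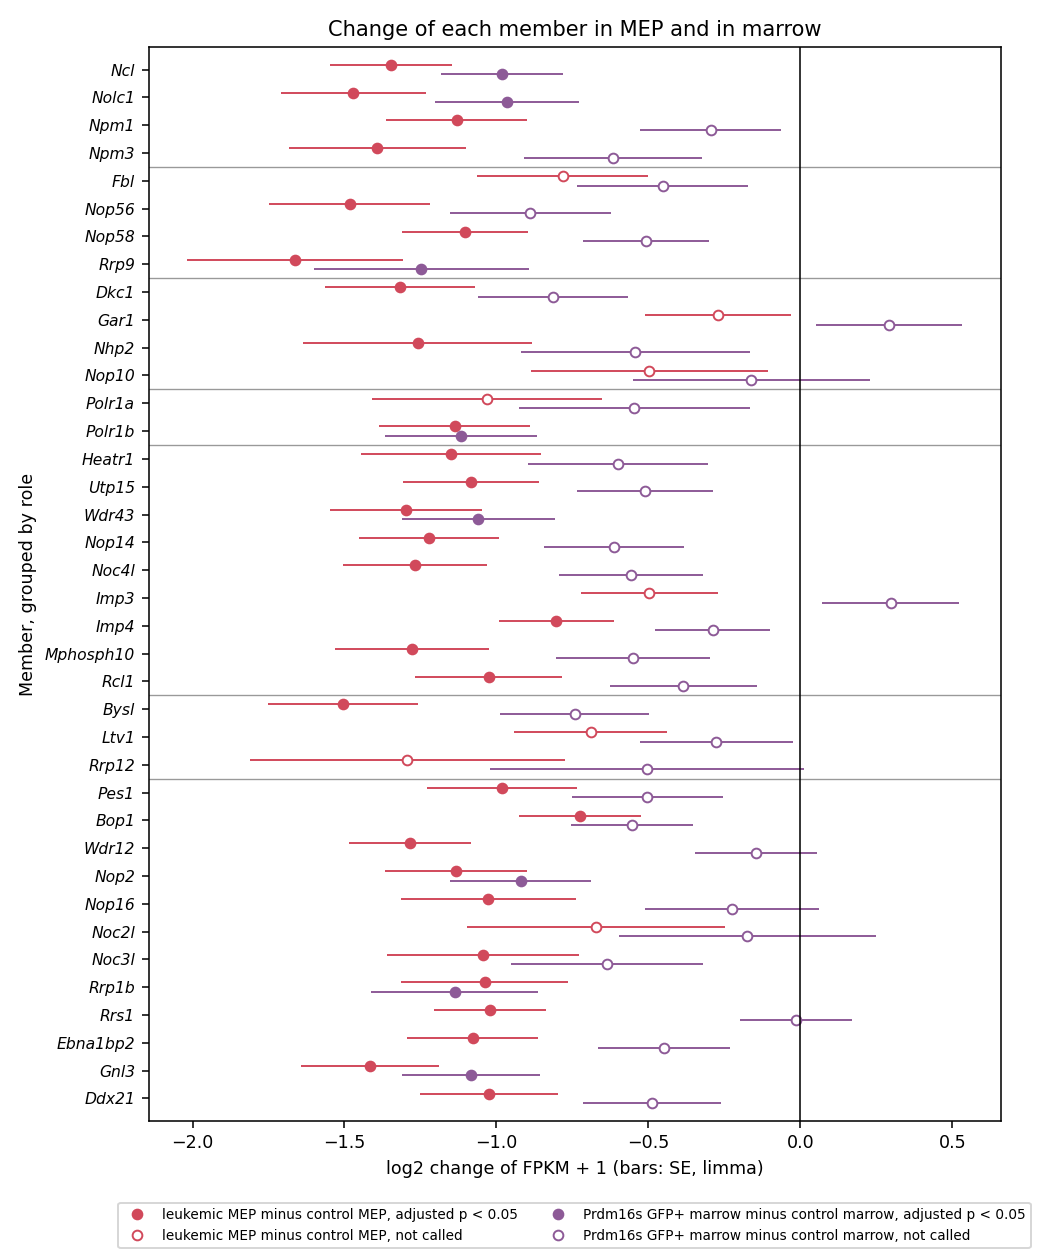
Change of each member on the log2(FPKM + 1) scale from control to leukemic MEP (red) and from control to GFP+ marrow (purple), with bars of 1 SE; filled points passed the test at adjusted p under 0.05. The 38 red points lie below 0 and 30 are filled, and 8 purple points are filled.

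Of the nucleolar phosphoproteins and chaperones, 4 of 4 members fell in leukemic MEP (12.3% of all genes), with a median change of -1.37. In GFP+ marrow 2 of 4 fell (6.03% of all genes). Npm1 encodes nucleophosmin, an abundant nucleolar chaperone whose gene is often mutated in acute myeloid leukemia. It stood at 444, 509 and 602 FPKM in the control MEP libraries, 219, 292 and 201 in leukemic MEP, 255, 297 and 268 in control marrow, with 227, 277 and 175 in GFP+ marrow. The MEP groups did not overlap and the change was -1.13 ± 0.23 (limma, adjusted p = 0.00401), while the marrow groups overlapped and the change was -0.29 (adjusted p = 0.48). Npm1 is known to have many processed pseudogenes, and reads shared with them make its level uncertain. Ncl encodes nucleolin, an RNA-binding protein of ribosomal RNA transcription and processing, and lies on chromosome 1 from 86344719 to 86359400 (GRCm38, GENCODE vM21). It was at 233, 174 and 176 FPKM in the control MEP libraries, 75.3, 89.1 and 62.9 in leukemic MEP, 105, 112 and 98.6 in control marrow, and 60.8, 50.7 and 47.4 in GFP+ marrow. Neither pair of groups overlapped. Mean Ncl was 2.56-fold lower in leukemic MEP (-1.35 ± 0.20, adjusted p = 0.000511), and it was 1.98-fold lower in GFP+ marrow (-0.98 ± 0.20, adjusted p = 0.00951). Ncl passed the test in MEP under all 24 alternatives and in marrow under 23, the exception being the fit without control marrow 2 (adjusted p = 0.0618). Nolc1, a chaperone of snoRNPs that moves between nucleolus and Cajal bodies, went from 80.9 ± 28.3 to 27.7 ± 3.6 FPKM in MEP and from 39.9 ± 3.68 to 20.0 ± 2.28 in marrow (SD, n = 3), and both changes passed the test. Npm3, of the nucleoplasmin family, was at 129 ± 38.2 and 49.6 ± 18.2 FPKM in the MEP groups and fell by 1.39 on the log2 scale, and 7.08% of its exon bases are shared with an antisense gene on the other strand.

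The box C/D snoRNP proteins methylate ribosomal RNA. Of these, 3 of 4 fell in leukemic MEP and 1 of 4 in GFP+ marrow (12.3% and 6.03% of all genes). Nop56, a scaffold protein of the particle, read 438, 404 and 388 FPKM in control MEP, against 170, 194 and 94.3 in leukemic MEP. In control marrow it read 242, 234 and 228, and in GFP+ marrow 115, 107 and 164. All 6 leukemic or GFP+ libraries lay below all 6 control libraries. Nop56 was among the 3 called members with the largest fall in MEP (-1.48 ± 0.27, adjusted p = 0.0017), and its marrow change of -0.89 missed the threshold (adjusted p = 0.058). Nop58, its partner in the scaffold, was at 350, 343 and 358 FPKM in control MEP, against 160, 199 and 135 in leukemic MEP. Control marrow had 205, 201 and 187 and GFP+ marrow 115, 134 and 172. Its MEP change was -1.10 ± 0.21 (adjusted p = 0.00231), and its marrow change was -0.51 (adjusted p = 0.159). Rrp9, which marks the snoRNP that guides the first cuts of the precursor RNA, had the lowest estimate of the 38 in both changes. The gene lies on chromosome 9 from 106475963 to 106485424. It read 126, 170 and 117 FPKM in the control MEP libraries, 71.6, 48.0 and 21.8 in leukemic MEP, 51.8, 77.0 and 83.2 in control marrow, with 30.5, 28.3 and 27.1 in GFP+ marrow. The leukemic MEP libraries were spread over a wide range, but none reached the lowest control MEP library. Its mean was 2.92-fold lower in leukemic MEP (-1.66 ± 0.35, adjusted p = 0.00505) and 2.47-fold lower in GFP+ marrow (-1.25 ± 0.35, adjusted p = 0.0472). The marrow call was lost in 13 of 24 alternatives, where its adjusted p reached 0.181. Fbl, the methyltransferase of the particle, was low in the table, at 21.0 ± 5.86 FPKM in control MEP, against 11.7 ± 2.14 in leukemic MEP, and did not pass the test (adjusted p = 0.0597).

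The box H/ACA proteins are shared between pseudouridylation particles and telomerase. Of these, 2 of 4 fell in leukemic MEP and none in marrow (12.3% and 6.03% of all genes). Dkc1, the pseudouridine synthase itself, went from 248 ± 17.8 FPKM in control MEP to 104 ± 37.6 in leukemic MEP (-1.32 ± 0.25, adjusted p = 0.0023). Nhp2 read 320, 694 and 496 FPKM in the control MEP libraries, 298, 238 and 112 in leukemic MEP, 186, 336 and 283 in control marrow, with 181, 165 and 191 in GFP+ marrow. The MEP libraries came close, with 320 above 298, and its change of -1.26 ± 0.38 (adjusted p = 0.0276) lost its call in 6 of 24 alternatives. Nop10, the smallest protein of the particle, read 294, 822 and 624 FPKM in the control MEP libraries, 461, 446 and 261 in leukemic MEP, 219, 434 and 351 in control marrow, with 359, 272 and 243 in GFP+ marrow. The groups overlapped, with control MEP 1 below leukemic MEP 1 and 2, and the change of -0.50 ± 0.39 did not pass the test (adjusted p = 0.374). Gar1 read 21.4, 41.2 and 31.5 FPKM in control MEP, against 28.1, 26.2 and 21.1 in leukemic MEP. It read 18.3, 19.7 and 20.8 in control marrow, with 24.0, 27.0 and 21.9 in GFP+ marrow, the one member with every GFP+ marrow library above every control marrow library. Neither Gar1 change passed the test (-0.27, adjusted p = 0.433 in MEP and 0.29, adjusted p = 0.5 in marrow).

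RNA polymerase I was represented by its catalytic subunits Polr1a and Polr1b. Polr1b read 59.9, 45.8 and 46.4 FPKM in the control MEP libraries, 21.2, 18.6 and 28.1 in leukemic MEP, 28.7, 31.1 and 32.8 in control marrow, and 14.9, 9.50 and 17.9 in GFP+ marrow. Both pairs of groups were separate, and the changes were -1.14 ± 0.25 in MEP (adjusted p = 0.00586) and -1.12 ± 0.25 in marrow (adjusted p = 0.0151). The difference between these changes was -0.02 ± 0.35 (adjusted p = 0.986). Polr1a read 16.0, 6.67 and 6.79 FPKM in the control MEP libraries, 3.36, 2.70 and 6.37 in leukemic MEP, 5.86, 4.74 and 4.82 in control marrow, and 2.26, 2.90 and 4.78 in GFP+ marrow. Control MEP 1 stood well above control MEP 2 and 3, and leukemic MEP 3 came within 1 FPKM of them. The MEP change of -1.03 ± 0.38 missed the threshold (adjusted p = 0.0642) and passed it without leukemic MEP 3.

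The small subunit processome is the particle that folds and cuts the precursor of the small subunit. In it 8 of 9 members fell in leukemic MEP and 1 in GFP+ marrow (12.3% and 6.03% of all genes). Rcl1, needed for a cut that parts the small from the large subunit RNA, read 161, 176 and 151 FPKM in the control MEP libraries, 83.3, 83.6 and 71.5 in leukemic MEP, 79.4, 82.7 and 88.6 in control marrow, and 50.9, 51.4 and 98.7 in GFP+ marrow. Leukemic MEP libraries lay below control MEP and overlapped with control marrow, and GFP+ marrow 3 was the highest of the marrow libraries. Mean Rcl1 was 2.05-fold lower in leukemic than in control MEP (-1.03 ± 0.24, adjusted p = 0.00872). Imp4, which forms a complex with Imp3 and Mphosph10, read 146, 171 and 147 FPKM in the control MEP libraries, 89.4, 91.1 and 83.4 in leukemic MEP, 95.2, 107 and 104 in control marrow, and 67.8, 81.6 and 104 in GFP+ marrow. Its MEP fall was smaller than the members' median and tight within groups (-0.80 ± 0.19, adjusted p = 0.00886). Of its partners, Mphosph10 fell by 1.28 on the log2 scale and Imp3 did not pass the test (-0.50, adjusted p = 0.127), although its 3 leukemic MEP libraries lay below control MEP. The remaining members Heatr1, Utp15 and Wdr43, which bind the nascent RNA first, and Nop14 and Noc4l changed by -1.08 to -1.30 in MEP, and Wdr43 also fell in marrow (-1.06 ± 0.25, adjusted p = 0.0206). Wdr43 went from 117 ± 41.9 to 45.5 ± 5.34 FPKM in MEP and from 66.6 ± 3.18 to 32 ± 7.14 in marrow (SD, n = 3).

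Of the factors that mature and export the small subunit, 1 of 3 fell in leukemic MEP and none in marrow. The shares of all genes were 12.3% and 6.03%. Bysl, known as bystin and part of late precursors of that subunit, read 50.5, 59.2 and 45.4 FPKM in the control MEP libraries, 16.9, 18.2 and 17.4 in leukemic MEP, 21.6, 24.0 and 30.6 in control marrow, with 10.5, 14.4 and 20.6 in GFP+ marrow. The 3 leukemic MEP libraries were close together, and their mean was 2.96-fold below control MEP (-1.50 ± 0.25, adjusted p = 0.000906). Ccnd3 shares 9.37% of the exon bases of Bysl on the opposite strand, and whether the counting used strand is not given in the sources used here. Ltv1, an assembly factor that leaves before the subunit matures, read 114, 85.7 and 98.9 FPKM in the control MEP libraries, 51.6, 85.6 and 51.1 in leukemic MEP, 79.2, 74.7 and 54.0 in control marrow, with 45.7, 61.8 and 63.1 in GFP+ marrow. The highest leukemic MEP library lay just under the lowest control MEP library, and the change was -0.69 ± 0.25 (adjusted p = 0.0616). Rrp12, an export factor, read 2.34, 2.36 and 14.4 FPKM in GFP+ marrow, the widest spread relative to its mean of any member in that group, and its MEP change of -1.29 ± 0.52 did not pass the test (adjusted p = 0.0863).

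Among the large subunit assembly factors 11 of 12 fell in leukemic MEP (12.3% of all genes), with Noc2l the exception. In GFP+ marrow 3 of 12 fell (6.03% of all genes). Gnl3 encodes nucleostemin, a nucleolar GTPase known from stem and progenitor cells. It read 239, 223 and 244 FPKM in the control MEP libraries, 85.0, 109 and 72.5 in leukemic MEP, 121, 145 and 98.5 in control marrow, and 43.9, 65.9 and 61.3 in GFP+ marrow. Neither pair of groups overlapped, and Gnl3 fell by 1.42 ± 0.23 in MEP (adjusted p = 0.000809), its marrow change being -1.08 ± 0.23 (adjusted p = 0.0109). Nop16 read 144, 223 and 189 FPKM in the control MEP libraries, 105, 105 and 63.7 in leukemic MEP, 86.2, 130 and 121 in control marrow, and 70.3, 96.2 and 126 in GFP+ marrow. Its MEP groups were separate (-1.03 ± 0.29, adjusted p = 0.0204) and its marrow groups were not. Rrp1b read 25.2, 22.0 and 21.0 FPKM in the control MEP libraries, 12.5, 9.71 and 9.56 in leukemic MEP, 15.4, 14.0 and 17 in control marrow, and 7.63, 3.83 and 9.02 in GFP+ marrow. It was the one member whose estimate was lower in marrow (-1.14 ± 0.27, adjusted p = 0.0227) than in MEP (-1.04 ± 0.27, adjusted p = 0.0157), and the difference of 0.10 did not pass the test (adjusted p = 0.93). Nop2, an RNA methyltransferase of the large subunit, went from 99.2 ± 25.2 to 44.6 ± 11.1 FPKM in MEP and from 48.2 ± 3.91 to 25.1 ± 3.16 in marrow, and both passed the test. The complex of Pes1, Bop1 and Wdr12, which processes the large subunit RNA, fell in MEP by 0.98, 0.73 and 1.28 on the log2 scale. Ddx21, an RNA helicase, Ebna1bp2, Noc3l and Rrs1 changed by -1.02 to -1.08. Noc2l went from 12.9 ± 3.84 to 7.64 ± 1.98 FPKM (limma, adjusted p = 0.264) and shares 20.9% of its exon bases with Samd11 on the other strand. It was counted over 5520 bases against 2867 in GENCODE vM21. Lengths differed for most other members too, which were counted over fewer bases than in GENCODE vM21, such as Nop58 (1976 against 10758).

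Wdr12 and Rrs1 were the 2 members whose MEP change differed from their marrow change in the test of the difference (0.366% of genes were lower by that test and 4.52% higher, 4.89% in all). Wdr12, on chromosome 1 from 60069785 to 60098645, read 101, 98.6 and 107 FPKM in control MEP, against 46.5, 49.8 and 30.3 in leukemic MEP. Its marrow libraries were close together, at 48.9, 57.4 and 52.7 in control marrow, with 47.4, 48.6 and 47.1 in GFP+ marrow. The changes were -1.28 ± 0.20 in MEP and -0.15 ± 0.20 in marrow, a difference of -1.14 ± 0.29 (limma, adjusted p = 0.0407). Rrs1, a factor that helps load the small RNA particle of the large subunit, lies on chromosome 1 from 9545408 to 9547455 as a single exon. It read 70.4, 63.0 and 63.4 FPKM in the control MEP libraries, 35.6, 33.3 and 27.0 in leukemic MEP, 43.3, 46.9 and 45.6 in control marrow, and 38.8, 52.0 and 44.4 in GFP+ marrow. Leukemic MEP was its lowest group and the marrow groups overlapped, giving -1.02 ± 0.18 in MEP, -0.02 ± 0.18 in marrow and a difference of -1.01 ± 0.26 (adjusted p = 0.0472). The call on the difference was lost in 13 of 23 alternatives for Wdr12 and in 18 of 23 for Rrs1, including every fit without 1 control MEP, control marrow or GFP+ marrow library. For the other 36 members the difference did not pass the test, and 37 of the 38 estimates were below 0 (48.1% of genes). Across the members the MEP and marrow changes had a Pearson r of 0.736 (Spearman 0.722, n = 38 genes measured in the same libraries), and across all tested genes r was 0.504.

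Control MEP were also set against control marrow to place the normal progenitors. The members were higher in control MEP in all 38 estimates, and 15 passed the test as higher and none as lower, against 2.63% and 12.3% of all genes. Their median difference was 0.78, with a range from 0.51 for Noc2l to 1.003 for Bysl. In 35 members every control MEP library exceeded every control marrow library (20.3% of genes). The 15 included 6 large subunit factors (Bop1, Wdr12, Nop2, Ebna1bp2, Gnl3 and Ddx21), 4 of the small subunit processome (Nop14, Noc4l, Imp3 and Rcl1), the nucleolar proteins Ncl, Nolc1 and Npm1, and Nop58 and Bysl. The count was 3 without control marrow 1, 5 without control marrow 3, 6 without control marrow 2, 7 without control MEP 2, 8 without control MEP 3 and 28 without leukemic MEP 3. Over all genes, fits without 1 library called 944 to 2780 in this comparison, against 1716 in the full fit.

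Leukemic MEP and GFP+ marrow, both Prdm16s cells of leukemic mice, differed in none of the 38 members by limma, where 3.05% of all genes passed (0.977% higher and 2.08% lower). At an unadjusted p under 0.05 there were 7 members (18.9% of genes), Bop1, Gnl3, Ncl, Nop2, Polr1b, Rrp1b and Rrs1, and voom on the recovered reads passed 2, Gnl3 and Nop2. The median difference was 0.20, with 33 of 38 estimates higher in leukemic MEP. Every leukemic MEP library lay above every GFP+ marrow library for 8 members (7.62% of genes) and below for 1, Rrs1 (8.3%). Without leukemic MEP 3, which lay inside the range of the GFP+ marrow libraries for 15 members, 4 were higher in leukemic MEP: Gnl3, Ncl, Nop2 and Rrp9. The calls over all genes moved as well, from 350 in the full fit to between 46 and 1760 without 1 library. Other alternatives, voom among them, gave 0 to 3285 genes, so these member counts are not a result particular to the members. Mean levels were lower in leukemic MEP than in control marrow for 34 members, a pair of groups that was not tested. Neither this count nor that of 15 members was made over all genes, so no share stands beside them.

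Levels of the members varied with gene length between libraries of a group. In control MEP 1, log2(FPKM + 1) minus the mean of control MEP 2 and 3 rose with gene length across the members (Pearson r 0.725, Spearman 0.681, n = 38 genes, 0.46 per doubling of length), and in control MEP 2 the same measure fell with length (r -0.730). The genes share the libraries and are not independent, and over all tested genes r was 0.449 and -0.425. The same measure gave the members r of 0.529 and -0.586 in control marrow 1 and 2 and 0.482 in leukemic MEP 3, and between -0.454 and 0.317 in the other libraries. The longest member, Polr1a (8932 bases), read 16.0 FPKM in control MEP 1 and 6.67 and 6.79 in the others, and the shortest, Nop10 (738 bases), read 294 against 822 and 624. Across members the MEP change had r of -0.265 with log2 length, and the marrow change -0.374. Without both control MEP 1 and leukemic MEP 3, an alternative chosen after the data were seen, 27 members fell in MEP, all among the 30. In marrow 15 fell in that fit, where the marrow calls over all genes also rose above the 1037 of the full fit.

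**Figure D4:**
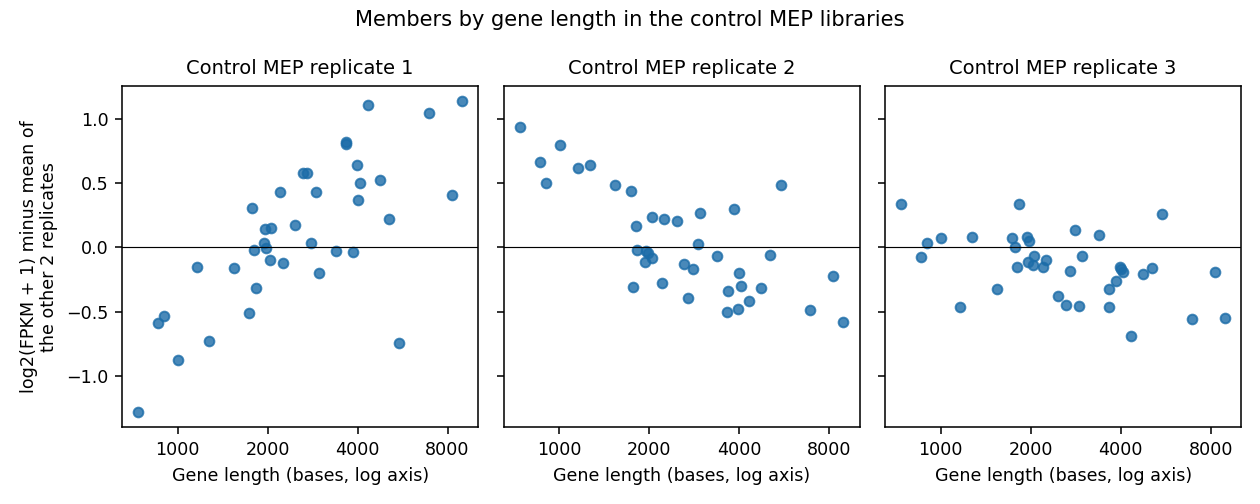
For each control MEP library, log2(FPKM + 1) of each member minus the mean of the other 2 control MEP libraries, against gene length in bases on a log axis; each point is 1 of 38 members. Long members lie high and short ones low in control MEP 1 (Pearson r 0.725), and the reverse holds in control MEP 2 (r -0.730). The values of a member cancel over the panels, so the panels are not independent.

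Ribosome biogenesis genes outside the 38 were taken as a list of 125, all of them tested. In leukemic MEP 61 fell and none rose (12.3% and 13.7% of all genes), with a median change of -0.80 and 120 estimates below 0. By function, 25 of 48 other large subunit factors fell, 21 of 44 other small subunit factors, 6 of 9 snoRNP assembly factors, 6 of 11 RNA exosome genes and 3 of 13 genes of RNA polymerase I and ribosomal DNA transcription. The largest falls were in Nmd3, the adaptor that exports the large subunit, in Rpf2, which acts with Rrs1, and in Ftsj3, an RNA methyltransferase. Nmd3 went from 147 ± 14.1 to 40.8 ± 9.75 FPKM in MEP (SD, n = 3, change -1.85 ± 0.21, adjusted p = 7.36e-05) and was at 82.5 ± 10.4 and 67.0 ± 9.74 in the marrow groups. Its MEP change differed from its marrow change by -1.55 ± 0.30 (adjusted p = 0.0114), the 1 gene of the 125 to pass that test. Rpf2 went from 126 ± 20.5 to 43.1 ± 27.6 FPKM in MEP (adjusted p = 0.00819) and Ftsj3 from 98.4 ± 35.1 to 27.7 ± 4.56 (adjusted p = 0.00131). In GFP+ marrow 8 of the 125 fell and none rose (6.03% and 3.02% of all genes), with a median of -0.36, and Ftsj3 was among them (-1.19, adjusted p = 0.0281).

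Ribosomal proteins are the parts that stay in the finished particle. Of 77 cytosolic ribosomal protein genes 7 fell in leukemic MEP and none rose (12.3% and 13.7% of all genes), with a median change of -0.31, and in GFP+ marrow 1 fell (6.03% of all genes), with a median of 0.06. Among those that fell was Rpl28, a large subunit protein, at 8.33 ± 3.1 FPKM in control MEP, against 1.93 ± 1.88 in leukemic MEP. These levels are low for the list and do not stand for it. Estimates were below 0 for 62 of the 77 genes in MEP (49% of all genes) and for 30 in marrow (53.4%). Between control MEP and control marrow 75 were higher in control MEP and 2 lower, and 3 passed the test, all as higher (2.63% of all genes). All 77 genes summed to 11594.5 to 22790.9 FPKM in control MEP libraries and 13355.1 to 16138.9 in leukemic MEP libraries. Ribosomal protein genes are known for many processed pseudogenes that share their reads, so these levels are uncertain. The plot of cumulative changes sets the members, the 125 other factors and the ribosomal proteins side by side.

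**Figure D5:**
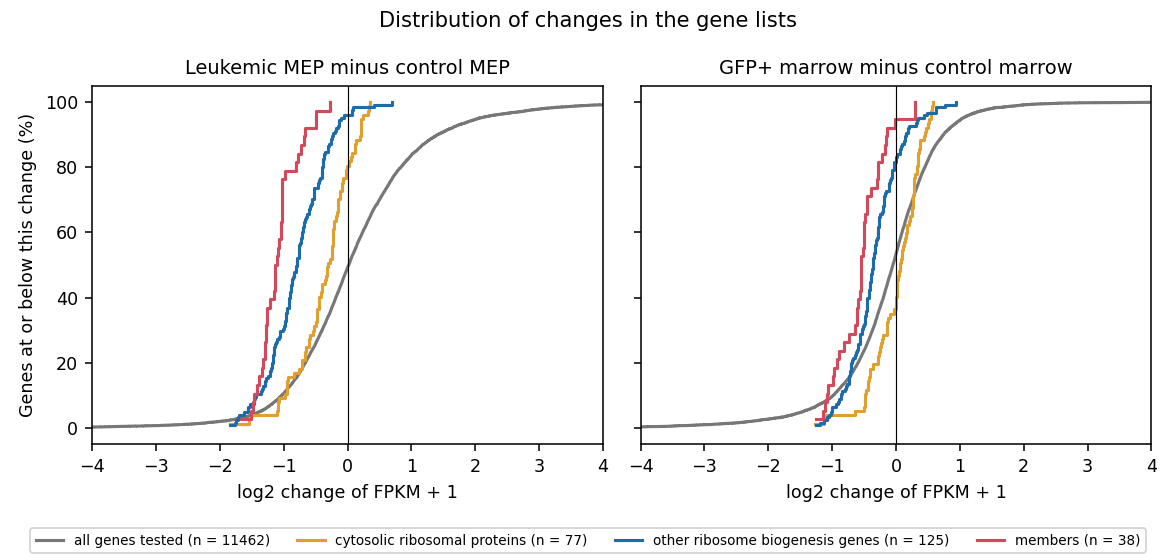
Percent of genes at or below each change on the log2(FPKM + 1) scale, for leukemic minus control MEP (left) and GFP+ minus control marrow (right); lines stand for all 11462 tested genes, 77 ribosomal proteins, 125 other ribosome biogenesis genes and the 38 members. In MEP the medians are 0.02, -0.31, -0.80 and -1.12, and in marrow -0.05, 0.06, -0.36 and -0.54.

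Myc itself, the known regulator of this pathway, read 278, 205 and 186 FPKM in the control MEP libraries, 162, 125 and 171 in leukemic MEP, 154, 145 and 187 in control marrow, and 181, 168 and 219.6 in GFP+ marrow. Its MEP libraries did not overlap, but the change of -0.53 ± 0.22 missed the threshold (adjusted p = 0.0965), and the marrow change was 0.23 (adjusted p = 0.58). Of 8 tested genes of the MYC family, 3 rose in leukemic MEP (13.7% of all genes): Mycn, Mxd3 and Mxd4. Mycn read 107, 74.9 and 3.69 FPKM in the leukemic MEP libraries, against 0.154 to 2.07 in control MEP (change 4.11 ± 0.89, adjusted p = 0.00551). Mxd3 and Mxd4, which pair with MAX and oppose MYC, went from 3.16 ± 0.736 to 18.7 ± 2.91 and from 1.30 ± 0.971 to 10.6 ± 5.64 FPKM (SD, n = 3). Of the same 8 genes, Mxi1 rose in GFP+ marrow (0.91, limma, adjusted p = 0.0488), as did 3.02% of all genes. Mxd1 and Mxd3 were lower in control MEP than in control marrow (-2.30 and -2.04, adjusted p = 0.00371 and 8.32e-05), as were 12.3% of all genes. Of 16 proliferation genes, 8 fell in leukemic MEP and 4 in GFP+ marrow (12.3% and 6.03% of all genes). Their medians were -0.69 and -0.64, against 0.02 and -0.05 for all genes. Estimates were below 0 for 15 of the 16 in MEP and for all 16 in marrow (49% and 53.4% of genes). Those that fell in MEP were Ccnb1, Ccna2, Aurka, Plk1, Mcm2, Mcm4, Mcm7 and Pcna. Of the 8 that did not pass the test there, Mki67 (0.04) held the 1 estimate above 0, and Top2a changed by -0.07. The part of proliferation or of MYC family levels in the results on ribosome biogenesis was not tested.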

How the data were processed

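RNA of 12 libraries was measured by RNA-seq. Per the labels' protocols, sorting was directly into Trizol, RNeasy columns purified the RNA, and the Smart-seq2 cDNA was turned into Nextera XT libraries for a HiSeq2500. Per the submitters' processing notes, CASAVA, bcl2fastq, STAR 2.5.3a, DESeq2 1.18.1 and the mm10 build were used. Not given in the sources used here are the read counter, its use of strand and the annotation. The authors deposited 1 table of FPKM values for 24107 genes. Whole reads and gene lengths were recovered from the steps between these values for all 16728 genes above 0 (tolerance 0.02), which gave the read depths.

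The test was limma-trend (limma 3.58.1, R 4.3.3) on log2(FPKM + 1) of the 11462 genes with at least 1 FPKM in at least 3 libraries, 4 groups in 1 fit (8 residual degrees of freedom), with Benjamini-Hochberg adjustment over all genes tested and calls at adjusted p under 0.05. On this scale the change of low genes is understated. The script was tested on simulated data. A total of 24 alternatives were tried: pseudocounts, filters, scalings, a replicate block, only the groups compared, array weights, voom on the recovered reads, and fits without libraries. Tables and plots were made with pandas 2.3.3, numpy 2.4.6 and matplotlib 3.10.9 in Python 3.11.15.

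The members, the other gene lists and the tests were chosen with earlier results of these data known, so no list was tested as a set. Values in every library are given for the 2 highest members of each role group, the 3 largest called changes in MEP and in marrow, the 2 uncalled members with the smallest MEP change, and any call against the majority. Of the other factors the 3 largest called MEP changes in each direction are named. The library values of Wdr12 and Rrs1, of Rrp12 in GFP+ marrow and of the MYC family, and the ribosomal protein Rpl28, were chosen after their values were seen. Of the 125 other factors, 4 were matched through older symbols. Gene positions are from GENCODE vM21 (GRCm38) and start sequences from RefSeq. Protein sequences were not used here.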

Additional observations from a re-analysis of the deposited data

Results flagged for a closer look

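The change of Wdr12 differed between MEP and marrow in the test of the difference itself: its MEP change minus its marrow change was -1.14 ± 0.29 on the log2(FPKM + 1) scale (limma, adjusted p = 0.0407). Over the alternatives this value ran from -1.27 to -0.88 and the adjusted p from 0.000685 to 0.183. All 3 leukemic MEP libraries were below all 3 control MEP libraries, and all 3 GFP+ marrow libraries were below all 3 control marrow libraries by a small margin.

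The change of Rrs1 differed in the same test by -1.01 ± 0.26 (adjusted p = 0.0472), with a range of -1.11 to -0.73 over the alternatives and adjusted p from 0.00837 to 0.243. Its marrow groups overlapped. The groups of 3 libraries were too small for a test of single outlying libraries.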

How the results depend on the processing

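All 38 members were lower in leukemic than in control MEP under every one of the 24 alternatives, and 22 passed the test in each of them. The members called lower in MEP numbered 26 to 32 in fits without 1 library and 27 to 36 otherwise. Leaving out 1 library in turn gave 0 to 12 members in marrow, 3 to 28 in control MEP against control marrow, 0 to 4 in leukemic MEP against GFP+ marrow and 0 to 2 for the difference of the changes. For all genes it gave 1916 to 3385, 388 to 2126, 944 to 2780, 46 to 1760 and 213 to 1075 (2976, 1037, 1716, 350 and 560 in the full fit). Where leaving out a library left 2 in a group, they were assumed to vary like the other groups.

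Array weights called 6151 genes in MEP, 29 members and 3453 genes in marrow, 36 and 5511 for control MEP against control marrow, 13 and 3285 for leukemic MEP against GFP+ marrow, and 2966 genes for the difference. Voom on recovered reads called 1907 genes in marrow, 27 members and 2731 genes for the controls, 2 and 1780 for the leukemic groups, and 1 and 893 for the difference. Without the 2 shallow libraries there were 1806 genes in marrow, 26 members and 2849 genes for the controls, 3 and 1685 for the leukemic groups, and 1 and 1003 for the difference. Without control MEP 1 and leukemic MEP 3, an alternative chosen after seeing the data, there were 15 members and 2246 genes in marrow, 24 and 2818 for the controls, 4 and 1798 for the leukemic groups, and 1 and 981 for the difference. With only the groups compared in the fit there were 1775 genes in marrow, 30 members and 3437 genes for the controls, and 0 genes for the leukemic groups. The cause of these changes was not tested. In the leukemic groups a pseudocount of 0.1 gave 225 genes and no filter 205. An FPKM of at least 5 left 1 member for the difference. No called value reversed, and uncalled member values changed sign 100 times.

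Scaling to equal FPKM totals gave 23 members for the controls, 5 members and 643 genes for the leukemic groups, and 0 members for the difference; quantile normalization gave 194 genes and 0 members for the latter pair. Equal totals moved the median of all genes by -0.20 in marrow, 0.15 between the controls, 0.36 between the leukemic groups and 0.21 for the difference, and quantile normalization by -0.12 in MEP, 0.23 between the controls and -0.18 for the difference. Relative to all genes, the members' median was -1.13, -1.13 and -0.92 in MEP and -0.50, -0.51 and -0.60 in marrow under the main, equal-total and quantile scalings. Higher against lower calls over all genes went from 346 and 691 to 195 and 853 (equal totals) in marrow, from 302 and 1414 to 594 and 1326 or 724 and 1084 (quantile) between the controls, from 112 and 238 to 510 and 133 or 83 and 111 between the leukemic groups, and from 518 and 42 to 312 and 72 (quantile) for the difference.

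The replicate block called 30 members in MEP, 7 in marrow (without Rrp9), 11 between the controls, 0 between the leukemic groups and 0 for the difference. The labels number the replicates but do not say that a number pairs libraries, and deviations of same-numbered MEP libraries correlated at -0.157, -0.0521 and -0.153. Between leukemic MEP and GFP+ marrow they correlated at 0.0862, 0.215 and 0.149, each library best with its own number, a hint from the data only. Between control MEP and control marrow they correlated at 0.497, 0.285 and 0.0734, with 2 of 3 best with their own number, and between the marrow groups at 0.017, -0.0619 and 0.0204. Depth limits the low members: 16 had under 50 reads in leukemic MEP 3, with a median of 56 reads per member.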
